A study of Mus musculus with 9 samples.

Results

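The 4 receptors of the epidermal growth factor (EGF) receptor family, Egfr, Erbb2, Erbb3 and Erbb4, and 6 of their ligands, Egf, Tgfa, Areg, Ereg, Hbegf and Btc, were examined in RNA sequencing of bulk mouse pancreatic neuroendocrine tumours. The rule that picks these genes uses their symbols only, although earlier results of these data were known when it was set, and all 10 had a row among the 22053 rows of protein-coding genes. The 9 libraries formed 3 groups of 3: subcutaneous tumours of the N134 cell line (N134 tumours 1, 2 and 3), subcutaneous tumours of N134-RHAMMB cells (N134-RHAMMB tumours 1, 2 and 4) and liver metastases of N134-RHAMMB cells (metastases 1, 2 and 3). N134 is a line of mouse pancreatic neuroendocrine tumour cells. RHAMMB is isoform B of the receptor for hyaluronan-mediated motility, which has been reported to act through EGFR signalling, so the comparisons ask how the RNA of the receptors and ligands differed with RHAMMB and with growth in the liver. All groups were grown in NOD.Cg-PrkdcscidIl2rgtm1Wjl/SzJ (NSG) mice, a strain without T, B and natural killer cells. The sources used here do not give host age and sex, the promoter and species of the RHAMMB construct, or whether each line is 1 clone. Metastases of N134 cells without RHAMMB are not analysed here, and the metastases differ from the subcutaneous tumours in organ and may differ in injection route, which cannot be told apart. Whether the libraries of a group are from separate animals is not in the labels, so each p-value covers the spread among these samples alone, and that spread may be technical.

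The EGF receptor family consists of receptor tyrosine kinases that pair on the cell surface after a ligand binds. EGFR binds EGF, TGF-alpha, amphiregulin (Areg), epiregulin (Ereg), heparin-binding EGF (Hbegf) and betacellulin (Btc), and the last 3 of these also bind ERBB4. ERBB2 has no known soluble ligand and acts as a partner, and ERBB3 binds neuregulins, has very weak kinase activity and recruits PI3-kinase when paired. The ligands are made as membrane-bound precursors and are released by cell-surface proteases, and active receptors signal through the RAS-ERK and PI3-kinase-AKT cascades. In the adult liver, hepatocytes carry abundant EGFR. Betacellulin was first isolated from a beta cell tumour line.

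Promoter windows of 250 bases before the RefSeq start site (GRCm38.p6) are shown for 3 members and 1 inhibitor of the receptor: Egfr, the member with the highest level, Areg and Btc, neighbours on chromosome 5 whose levels in the metastases differed from the N134 tumours in opposite directions, and Errfi1, the receptor inhibitor with the clearest difference. RefSeq windows matched 7 of the 10 members. There was none for Erbb3, Ereg and Hbegf. Capitals mark matches on either strand to 3 motifs, the cAMP response element (CRE, TGACGTCA), the TATA box (TATAAA) and the GC box (GGGCGG).
Egfr, chr11:16751953-16752202, plus strand: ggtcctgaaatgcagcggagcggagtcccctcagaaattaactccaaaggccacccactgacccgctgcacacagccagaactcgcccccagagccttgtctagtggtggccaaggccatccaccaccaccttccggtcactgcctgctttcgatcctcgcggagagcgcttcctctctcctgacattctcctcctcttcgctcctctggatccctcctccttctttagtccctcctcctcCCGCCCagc
Areg, chr5:91139349-91139598, plus strand: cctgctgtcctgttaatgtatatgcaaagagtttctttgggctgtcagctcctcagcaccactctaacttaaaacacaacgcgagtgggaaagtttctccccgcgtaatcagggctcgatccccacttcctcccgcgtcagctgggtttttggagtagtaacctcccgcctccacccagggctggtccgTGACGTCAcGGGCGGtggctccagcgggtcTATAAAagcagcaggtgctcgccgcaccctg
Btc, chr5:91402995-91403244, minus strand: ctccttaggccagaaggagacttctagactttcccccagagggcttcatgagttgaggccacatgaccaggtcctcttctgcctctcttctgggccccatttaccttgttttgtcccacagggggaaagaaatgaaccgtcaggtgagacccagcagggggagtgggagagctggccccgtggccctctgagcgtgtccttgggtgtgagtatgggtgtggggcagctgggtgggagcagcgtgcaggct
Errfi1, chr4:150854820-150855069, plus strand: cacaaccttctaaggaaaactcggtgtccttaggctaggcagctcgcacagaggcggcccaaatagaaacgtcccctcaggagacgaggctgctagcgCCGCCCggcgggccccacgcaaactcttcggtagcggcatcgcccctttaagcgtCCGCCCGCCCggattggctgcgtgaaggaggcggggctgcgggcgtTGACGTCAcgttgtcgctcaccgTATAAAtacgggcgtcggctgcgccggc
The Egfr window held 1 GC box, which began 9 bases before the start site, and neither of the other motifs. The Areg window held a CRE, a GC box and a TATA box, which began 61, 52 and 31 bases before the start site. The Btc window held none of the 3 motifs. The Errfi1 window held a CRE 51 bases and a TATA box 28 bases before the start site, with 3 GC boxes farther out, some of which share bases, and it overlaps an exon of 1700045H11Rik on the minus strand. A window of another Errfi1 start site held none of them. The windows of the members Erbb2, Erbb4, Egf and Tgfa, which are not shown, held neither a CRE nor a TATA box. The shown windows were picked by gene, and no enrichment was tested. Of 32851 RefSeq windows of this length, 1.55% held the CRE, 12.4% the TATA box, 32.7% the GC box, and 0.119% (39 windows) both the CRE and the TATA box. These matches describe letters in the windows and are not evidence of a bound factor.

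Levels are the deposited FPKM values, in which fragments are divided by transcript length in kilobases and by library size in M (mega) mapped fragments. Because FPKM is per transcript length, levels of different genes can be compared. Each library held an estimated 14.6 to 18.2 M fragments, so a single fragment gave a 2 kb transcript 0.0274 to 0.0342 FPKM. The labelled tumour type was checked against its markers: 12 of 12 neuroendocrine and beta cell markers reached a group mean of 1 FPKM in all 3 groups, and their summed level was 32163 to 48749 FPKM. Hmmr, the gene that encodes RHAMM, was at 39.2 to 44.9 FPKM in the N134 tumours, 49.2 to 51.3 in the N134-RHAMMB tumours and 36 to 43.3 in the metastases (adjusted p by limma 0.354 for the first against the second group). The gene's value does not separate isoforms, so it is no check of the construct. Hepatocyte RNA was present in the metastases: 14 of 15 hepatocyte markers rose there against the N134-RHAMMB tumours, and albumin (Alb) was at 1410 to 1609 FPKM in them and at 0.481 to 1.60 FPKM in the 6 subcutaneous tumours. In N134-RHAMMB tumours 2 and 4 the skeletal muscle markers summed to 175 and 209 FPKM, and they summed to 11.8 to 25.7 in the other 7 libraries. Metastasis 2 stood apart from metastases 1 and 3 on the second principal component, and correlations of log2(FPKM + 1) between replicates were lowest among the metastases (0.946 to 0.979).

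Differences between groups were tested with limma on log2(FPKM + 1) in 1 model over the 9 libraries, with p-values adjusted over the 12854 genes at or above 1 FPKM in at least 3 libraries. A gene was called at adjusted p below 0.05. The filter kept 5 of the 10 members, Egfr, Erbb3, Hbegf, Tgfa and Egf. Erbb2, Erbb4, Areg, Ereg and Btc were below it in all 9 libraries. None of the 5 was called in N134-RHAMMB against N134 tumours (0.194% of all genes called), in metastases against N134-RHAMMB tumours (6.56%) or in metastases against N134 tumours (9.93%). At an unadjusted p below 0.05 the counts were 2, 0 and 1 of 5, against 12.8%, 16.7% and 21.4% of all genes. The median difference of the 5 members was 0.0018, 0.08 and 0.28 in these comparisons, and the median over all genes tested was 0.01, -0.06 and -0.03.

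**Figure D1:**
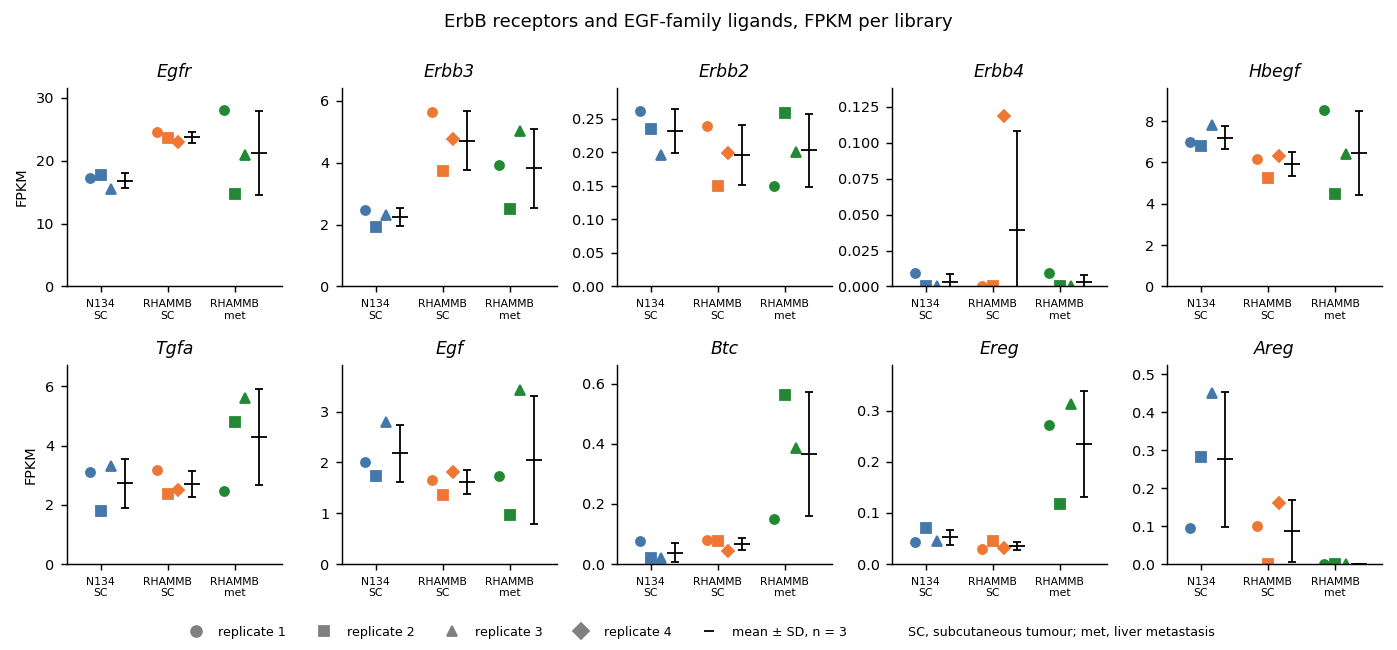
FPKM of the 10 genes in each library (points, shaped by replicate number, with group mean ± SD of 3 libraries as bars, cut off at 0); each vertical axis is linear, starts at 0 and has its own scale. Egfr lay at 22.9 to 24.5 FPKM in the N134-RHAMMB tumours and at 15.4 to 17.7 in the N134 tumours, while Erbb2, Erbb4, Btc, Ereg and Areg stayed below 1 FPKM everywhere.

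Egfr was the highest member by level in every library. It lies on the plus strand of chromosome 11, chr11:16752203-16918158 in GRCm38. Its level was 17.2, 17.7 and 15.4 FPKM in N134 tumours 1, 2 and 3, 24.5, 23.6 and 22.9 FPKM in the N134-RHAMMB tumours (1, 2 and 4) and 28.0, 14.7 and 20.8 FPKM in the metastases (1, 2 and 3). The 3 N134-RHAMMB tumours lay above the 3 N134 tumours with no overlap, while the metastases spanned the range of both, with metastasis 2 the lowest and metastasis 1 the highest of all 9 libraries. The means were 16.8 ± 1.18, 23.7 ± 0.825 and 21.2 ± 6.68 FPKM (SD, n = 3 each), so the metastases had the widest spread. The log2 difference of N134-RHAMMB from N134 tumours was 0.48 (SE 0.19, 95% interval 0.05 to 0.90), a ratio of means of 1.41, and its adjusted p by limma was 0.339. Against the N134-RHAMMB tumours the metastases differed by -0.20 (interval -0.62 to 0.23) and against the N134 tumours by 0.28 (interval -0.15 to 0.70), with limma adjusted p of 0.703 and 0.465. Among the tested genes of a library, Egfr stood between the 58.6 and the 76.6 percentile of level.

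Erbb3, the neuregulin receptor with weak kinase activity, was the next receptor by level. Of the 5 tested members it had the largest difference between the subcutaneous groups on the log2(FPKM + 1) scale, while Egfr differed more in FPKM. It lies at chr10:128567523-128589652 on the minus strand. Its level was 2.49, 1.91 and 2.32 FPKM in the N134 tumours, 5.62, 3.73 and 4.77 FPKM in the N134-RHAMMB tumours and 3.93, 2.5 and 5.03 FPKM in the metastases, each in the order of the replicate numbers. Every N134-RHAMMB library, tumour or metastasis, lay above every N134 tumour. The margin was smallest in metastasis 2, at 2.499 FPKM against 2.485 in N134 tumour 1, which is nearly a tie. With 1 transcript of 6016 nucleotides, the levels in the 3 groups correspond to an estimated 192 to 248, 335 to 522 and 274 to 522 fragments. The log2 difference was 0.81 (SE 0.22, interval 0.33 to 1.29, ratio of means 2.1) for N134-RHAMMB against N134 tumours, with an unadjusted p of 0.00384 and an adjusted p of 0.174 by limma. For metastases against N134 tumours it was 0.54 (interval 0.06 to 1.02, ratio of means 1.71), again with a limma adjusted p of 0.174, and for metastases against N134-RHAMMB tumours -0.27 (interval -0.75 to 0.22). With metastasis 2 left out, limma called Egfr and Erbb3 in metastases against N134 tumours (adjusted p 0.0396 and 0.0265), in a fit that called 1571 of the 12854 genes there. With libraries weighted by their fit, limma called both genes in that comparison (0.0454 and 0.0365, with 1631 genes called) and in N134-RHAMMB against N134 tumours (0.00939 and 0.00206), with 2629 genes called. None of the other alternative fits, of 19 for Egfr and 18 for Erbb3, called either gene in these comparisons.

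The groups did not overlap in N134-RHAMMB against N134 tumours for 3 of the 5 tested members, Egfr and Erbb3 (higher) and Hbegf (lower), while 25.3% of all tested genes did not overlap there (14% higher and 11.3% lower). In metastases against N134 tumours only Erbb3 of the 5 did not overlap, against 25.7% of genes (11.4% higher), and in metastases against N134-RHAMMB tumours none of the 5 did, against 19.8%. Stromal markers differed in the first of these comparisons. Fibroblast markers summed to 661 to 919 FPKM in the N134 tumours and 299 to 523 in the N134-RHAMMB tumours (2 of 10 fell), and macrophage markers to 422 to 713 and 309 to 412 (0 of 10 called). In bulk samples fewer cells of a type and less RNA per cell cannot be told apart, and the part of these cells in the member values was not tested. Hepatocyte markers were higher in the metastases, and the part of hepatocytes in the Egfr and Erbb3 values there was not tested.

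Erbb2, the receptor with no known soluble ligand, was low in all groups. It lies on the plus strand of chromosome 11, chr11:98412470-98437716. Its level was 0.261, 0.234 and 0.196 FPKM in the N134 tumours, 0.239, 0.149 and 0.198 FPKM in the N134-RHAMMB tumours and 0.150, 0.259 and 0.200 FPKM in the metastases. The 3 groups overlapped throughout. Exons of Erbb2 share 9 bases with Mien1 on the other strand. The level of Egfr was 56.8 to 187 times that of Erbb2 in the same library. Erbb4, which binds neuregulins and some EGFR ligands, lies at chr1:68032186-69108059 on the minus strand and was listed at 0 in 6 of the 9 libraries. It was at 0.00919 FPKM in N134 tumour 1, 0.119 FPKM in N134-RHAMMB tumour 4 and 0.00912 FPKM in metastasis 1. Rows marked as a failed estimate were dropped beforehand, and Erbb4 was not among them. A listed 0 is still no proof that RNA was absent, so it is given only as listed.

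**Figure D2:**
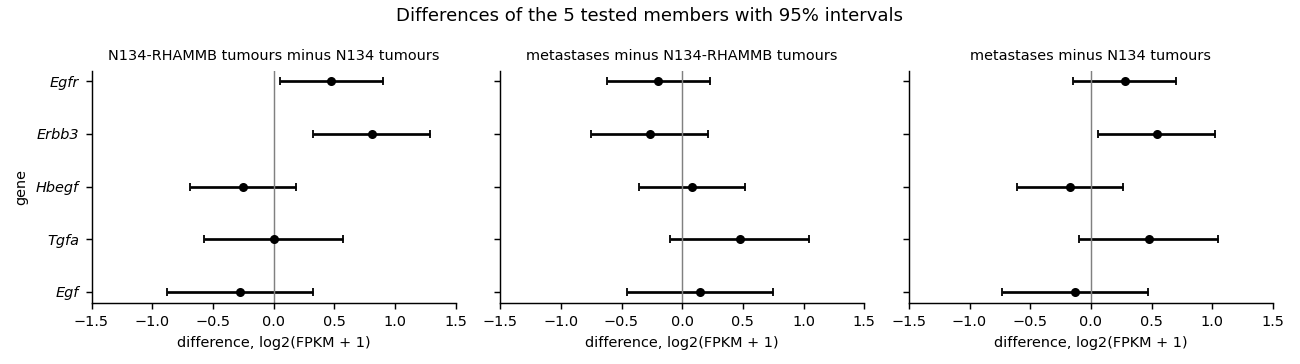
Difference of the 5 tested members between groups on the log2(FPKM + 1) scale (points) with 95% intervals (bars), 1 panel for each comparison; the vertical line is no difference. The intervals of Egfr and Erbb3 lie above 0 in N134-RHAMMB against N134 tumours (0.05 to 0.90 and 0.33 to 1.29), and no difference passed adjustment over all genes.

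Hbegf, heparin-binding EGF, was the ligand with the highest mean level. It lies on the minus strand of chromosome 18, chr18:36504929-36515805. Its level was 7.0, 6.78 and 7.83 FPKM in the N134 tumours, 6.18, 5.24 and 6.31 FPKM in the N134-RHAMMB tumours and 8.55, 4.48 and 6.40 FPKM in the metastases. The N134-RHAMMB tumours lay below the N134 tumours, the reverse of Egfr, and the metastases again spanned both groups with metastasis 2 lowest. The log2 difference of N134-RHAMMB from N134 tumours was -0.25 (interval -0.68 to 0.19), with an adjusted p by limma of 0.647. The metastases differed from the N134-RHAMMB tumours by 0.08 and from the N134 tumours by -0.17, with limma adjusted p of 0.909 and 0.701.

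Tgfa, which encodes TGF-alpha, lies at chr6:86195223-86275719 on the plus strand. Its level was 3.09, 1.79 and 3.32 FPKM in the N134 tumours, 3.19, 2.37 and 2.5 FPKM in the N134-RHAMMB tumours and 2.48, 4.78 and 5.60 FPKM in the metastases. Metastases 2 and 3 lay above all subcutaneous tumours, and metastasis 1 lay among them. The log2 difference was 0.0018 (interval -0.57 to 0.58) between the subcutaneous groups, 0.47 (interval -0.10 to 1.05) for metastases against N134-RHAMMB tumours and 0.48 (interval -0.10 to 1.05) for metastases against N134 tumours. The limma adjusted p was 1, 0.421 and 0.341. Its exons share 118 bases with Gm43917 on the other strand, and without strand information reads there cannot be told apart. Among the 5 tested members, Tgfa alone did not have its lowest metastasis value in metastasis 2. Egf, the founding ligand of the family, lies at chr3:129677565-129755316 on the minus strand. Its level was 2.0, 1.73 and 2.8 FPKM in the N134 tumours, 1.65, 1.36 and 1.82 FPKM in the N134-RHAMMB tumours and 1.74, 0.961 and 3.43 FPKM in the metastases. The groups overlapped, and the lowest and the highest of the 9 values were both in metastases. The log2 differences in the 3 comparisons were -0.27 (interval -0.88 to 0.33), 0.15 and -0.13, with limma adjusted p of 0.723, 0.876 and 0.853. Exons of Egf share bases with antisense genes (6330410L21Rik and Gm42697), and without strand information their reads cannot be told apart.

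Areg, Ereg and Btc lie within 328 kb of chromosome 5. In GRCm38, Ereg is at chr5:91074622-91093646 and Areg at chr5:91139599-91148432 on the plus strand, 46.0 kb apart, and Btc is at chr5:91357261-91402994 on the minus strand, 209 kb beyond Areg. All 3 stayed below 1 FPKM in all libraries, Ereg and Btc with their highest values in the metastases and Areg with its highest in an N134 tumour. Ereg, epiregulin, was at 0.0433, 0.0698 and 0.0449 FPKM in the N134 tumours, 0.0297, 0.0441 and 0.0323 FPKM in the N134-RHAMMB tumours and 0.273, 0.117 and 0.314 FPKM in the metastases. The 3 metastases lay above the 6 subcutaneous tumours, and how many genes below the filter separate in this way was not counted. With 1 transcript of 4128 nucleotides, these levels correspond to an estimated 3, 5 and 3, then 2, 3 and 2, then 19, 9 and 22 fragments. Its exons share 141 bases with the antisense gene Gm19610, and reads of the pair cannot be told apart without strand.

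Btc, betacellulin, was at 0.0751, 0.0186 and 0.020 FPKM in the N134 tumours, 0.0783, 0.0771 and 0.0435 FPKM in the N134-RHAMMB tumours and 0.151, 0.563 and 0.387 FPKM in the metastases. Every metastasis again lay above every subcutaneous tumour, here with metastasis 2 the highest. Areg, amphiregulin, showed the other direction. It was at 0.0954, 0.283 and 0.451 FPKM in the N134 tumours, 0.101, 0 and 0.162 FPKM in the N134-RHAMMB tumours and was listed at 0 in all 3 metastases. Its single transcript of 1215 nucleotides gives an estimated 2, 6 and 9 fragments in the N134 tumours and 2, 0 and 3 in the N134-RHAMMB tumours, so it rested on very few reads.

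With no filter on low values, limma called Ereg higher in the metastases than in the N134-RHAMMB tumours (log2 difference 0.25, adjusted p 0.0373, 5.78% of 18386 genes called) and than in the N134 tumours (0.23, adjusted p 0.0441, 8.52% called). Btc was higher than in the N134 tumours (0.39, limma adjusted p 0.0427), and its difference from the N134-RHAMMB tumours was 0.35 (limma adjusted p 0.0847). Areg differed by -0.12 and -0.34 in these comparisons (limma adjusted p 0.649 and 0.0691). This fit without the filter and its variations were chosen after the values were seen. Each Ereg call was lost without any 1 library other than metastasis 2 (limma adjusted p 0.0706 to 0.122 and 0.0729 to 0.135), and the Btc call was lost without any 1 other than metastasis 1 (limma 0.0618 to 0.148). Without metastasis 1 limma called Btc against the N134-RHAMMB tumours too (0.00279), and without N134 tumour 1 it called Areg lower in the metastases than in the N134 tumours (0.0160). With 0.1 FPKM added in place of 1, limma called Areg lower in the metastases than in the N134 tumours (-1.79, adjusted p 0.0361, 8.17% of genes called), and Ereg higher than in the N134-RHAMMB tumours (1.25, adjusted p 0.0207, 5.87% called). The calls of Ereg and Btc higher than in the N134 tumours stayed (1.08 and 1.67, limma adjusted p 0.0336 and 0.0183). None of the 10 members was called between the subcutaneous groups with no filter, where limma called 0.0925% of genes.

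Summed markers of hepatocytes and bile duct cells were higher in the metastases, as Ereg and Btc were, while Areg was lower there than in the N134 tumours. Hepatocyte markers summed to 5071 to 5249 FPKM in the metastases and to 352 to 489 FPKM in the subcutaneous tumours, where Ttr, which islet cells also make, was at 282 to 427 FPKM. Bile duct cell markers summed to 109 to 154 FPKM in the metastases and 29.4 to 47.9 FPKM in the subcutaneous tumours (2 of 4 tested rose in both comparisons). Of these markers, Spp1 was at 69.2 to 91.3 and 2.61 to 20.8 FPKM, and Pigr at 8.93 to 15.2 and 0.0150 to 0.108. Krt7 (20.4 to 48.7 and 19.5 to 36.5 FPKM) and Epcam overlapped, and Krt19, Sox9 and Cftr stayed below 1 FPKM throughout. The sums of Kupffer cell markers overlapped, at 20.5 to 30.6 and 5.79 to 26.0 FPKM, and in each comparison 2 of 6 tested rose and 1 fell. C6 was at 15.6 to 18.6 FPKM in the metastases and 0.191 to 0.702 in the subcutaneous tumours, while Folr2 was at 0.427 to 0.525 and 3.34 to 11 FPKM. The part of these cells in the levels of Ereg and Btc was not tested. Macrophage markers summed to 188 to 330 FPKM in the metastases, and 8 of 10 fell against the N134 tumours. Fibroblast markers summed to 218 to 451 FPKM, with 5 of 10 fallen, and adipocyte markers to 13.7 to 19.5 FPKM against 51.2 to 69.5 FPKM, and the part of these cells in the level of Areg was not tested.

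Ordered by mean level over the 9 libraries, the members ran from Egfr (20.5 FPKM) through Hbegf (6.53), Erbb3 (3.59), Tgfa (3.24), Egf (1.94), Erbb2 (0.210), Btc (0.157), Areg (0.121) and Ereg (0.108) to Erbb4 (0.0152). Egfr lay above Hbegf and Egf above Erbb2 with no overlap of their ranges. Hbegf exceeded Erbb3, and Tgfa exceeded Egf, in 9 of 9 libraries, although their ranges overlapped. Erbb3 exceeded Tgfa in only 5 of 9 libraries, and no test between genes was run. In the N134-RHAMMB tumours all Erbb3 values (3.73 to 5.62 FPKM) lay above those of Tgfa (2.37 to 3.19). Within the N134 tumours and within the metastases the order varied by library. The order of Btc, Areg and Ereg went with the group. In the N134 tumours all Areg values (0.0954 to 0.451 FPKM) lay above those of Btc (0.0186 to 0.0751) and Ereg (0.0433 to 0.0698), and in the metastases Areg was listed at 0, below Ereg (0.117 to 0.314) and Btc (0.151 to 0.563).

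**Figure D3:**
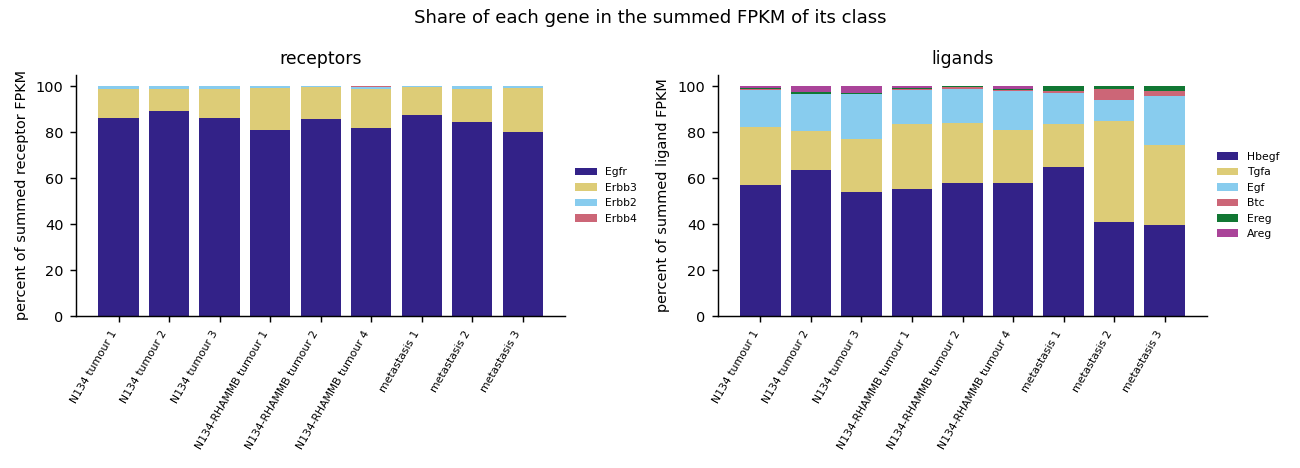
Share of each gene in the summed FPKM of the 4 receptors (left) and of the 6 ligands (right) in each library, as stacked percentages that add to 100. Egfr made up 79.9% to 89.2% of the receptor sum, and Hbegf 39.7% to 64.8% of the ligand sum, with the lowest Hbegf shares in metastases 2 and 3.

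Within a library, Egfr made up 86.0% to 89.2% of the summed receptor FPKM in the N134 tumours, 80.7% to 85.9% in the N134-RHAMMB tumours and 79.9% to 87.3% in the metastases. Erbb3 took up most of the rest, with 9.62% to 12.9%, 13.6% to 18.5% and 12.2% to 19.3%. The ratio of Egfr to Erbb3 was 6.64 to 9.27, 4.37 to 6.32 and 4.14 to 7.13. The 3 N134-RHAMMB tumours thus lay below the 3 N134 tumours in this ratio, and the metastases overlapped both. The receptor sum was 18.0 to 19.9, 27.5 to 30.4 and 17.4 to 32.1 FPKM, and the ligand sum 10.7 to 14.5, 9.09 to 11.2 and 10.9 to 16.1 FPKM. Hbegf made up 54.2% to 63.5% of the ligand sum in the N134 tumours, 55.1% to 58.1% in the N134-RHAMMB tumours and 39.7% to 64.8% in the metastases, and Tgfa 16.8% to 43.9% over all libraries.

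The 3 genes whose profile over the 9 libraries was most like that of Egfr were Zbtb46, Pbx3 and Gusb, with root mean square distances of 0.0662, 0.0834 and 0.113 on the centred log2(FPKM + 1) scale. Tested genes named only by a clone or predicted-gene number were passed over. The median distance over 12407 genes was 0.359, and a flat profile would lie at 0.291. All 3 share with Egfr a lowest metastasis value in metastasis 2 and a highest in metastasis 1. For example, Pbx3 was at 21.3 to 21.7 FPKM in the N134 tumours, 26.7 to 27.9 FPKM in the N134-RHAMMB tumours and, in the order of the replicate numbers, 33.5, 18.8 and 25.0 FPKM in the metastases. The libraries shared by these profiles include the group differences and the depth of each library, so the likeness is only a description.

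Beyond the members, 91 genes of the pathway were listed by role, and 84 passed the filter. In N134-RHAMMB against N134 tumours 0 of 84 were called by limma (8 at an unadjusted p below 0.05). In metastases against N134-RHAMMB tumours 1 was higher and 3 were lower (10 unadjusted), and in metastases against N134 tumours 2 were higher and 2 lower (14 unadjusted). These shares of 84 lie near or below the share of all genes called. Where groups of a pathway gene are said below not to overlap, the same held for many genes. Of all tested genes 25.3%, 19.8% and 25.7% did not overlap in the 3 comparisons.

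**Figure D4:**
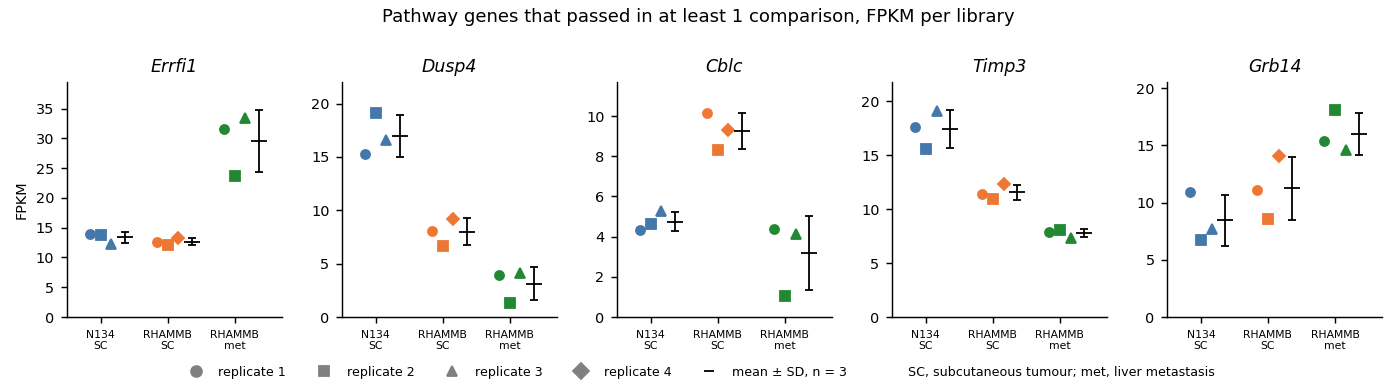
FPKM of the 5 pathway genes called in at least 1 comparison, in each library (points, shaped by replicate number) with group mean ± SD of 3 libraries (bars); each vertical axis is linear, starts at 0 and has its own scale. Errfi1 lay at 23.7 to 33.4 FPKM in the metastases and at 12.1 to 14.0 in the subcutaneous tumours, and Dusp4 was lowest in the metastases.

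Among other ligands, only Nrg1 of 5 passed the filter. Nrg1, neuregulin 1, a ligand of ERBB3 and ERBB4, was at 1.68, 1.67 and 2.11 FPKM in the N134 tumours, 0.680, 0.456 and 0.833 FPKM in the N134-RHAMMB tumours and 7.11, 0.493 and 1.82 FPKM in the metastases. Metastasis 1 was the highest of all libraries and metastasis 2 the lowest but one. The differences were -0.77, 0.98 and 0.21 in the 3 comparisons, with limma adjusted p of 0.537, 0.346 and 0.871. Of 18 alternatives each, 1 called the first, with those 2 groups alone in the fit (limma adjusted p 0.0378). The second was called in 2, among them the fit without metastasis 2 (limma 0.0256), and the third turned to -0.46 without metastasis 1. Of the 10 genes of ligand shedding, 0, 1 and 1 were called in the 3 comparisons, each time Timp3. Timp3, an inhibitor of the sheddases ADAM10 and ADAM17, was at 17.6, 15.6 and 19.1 FPKM in the N134 tumours, 11.4, 10.9 and 12.3 FPKM in the N134-RHAMMB tumours and 7.92, 8.04 and 7.34 FPKM in the metastases. The 3 groups did not overlap and stood in this order. It fell by 1.07 on the log2 scale in the metastases against the N134 tumours (SE 0.12, limma adjusted p 1.80e-04) and by 0.52 against the N134-RHAMMB tumours (limma adjusted p 0.0306). Of 19 alternative fits, 9 lost the latter call, 6 of them by leaving out 1 library (N134 tumour 1, N134-RHAMMB tumours 1, 2 and 4, metastases 1 and 3, limma adjusted p 0.0545 to 0.111). Between the subcutaneous groups the difference was -0.55 (limma adjusted p 0.133). Timp3 shares exonic bases with Syn3 on the other strand, and without strand information reads there cannot be told apart. The part of the fibroblasts, whose sums are given above, in its level was not tested. Rhbdl2, a rhomboid protease that can cleave EGF, had log2 differences of 0.53 in N134-RHAMMB against N134 tumours and -0.54 in metastases against N134-RHAMMB tumours (limma adjusted p 0.174 and 0.0562). Of 19 alternatives each, 1 called the former and 4 the latter, among them the fit without metastasis 2 (limma 0.0215).

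Among 14 adaptors and docking proteins, 0, 0 and 1 were called. Grb14, an adaptor that binds receptor tyrosine kinases, was at 10.9, 6.75 and 7.67 FPKM in the N134 tumours, 11.1, 8.53 and 14.1 FPKM in the N134-RHAMMB tumours and 15.3, 18.1 and 14.6 FPKM in the metastases. Every metastasis lay above every subcutaneous tumour. It rose in the metastases against the N134 tumours by 0.87 (limma adjusted p 0.0234), a call lost without N134 tumour 2 or 3 or metastasis 1 or 2 (limma adjusted p 0.0508 to 0.0995). The hepatocyte sums, 352 to 489 FPKM in the subcutaneous tumours and 5071 to 5249 in the metastases, moved with it, and their part was not tested. Plcg1, phospholipase C gamma 1, differed by 0.41 between the subcutaneous groups (limma adjusted p 0.425). None of the 11 genes of the RAS-ERK cascade and none of the 11 of the PI3-kinase, AKT and STAT list was called by limma in any comparison, and none of either list had an unadjusted p below 0.05. Their medians lay between -0.14 and 0.05.

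Of 19 tested inhibitors and down-regulators of the receptors, 0 were called between the subcutaneous groups, 1 rose and 1 fell in metastases against N134-RHAMMB tumours, and 1 rose in metastases against N134 tumours. Errfi1 (MIG-6), which binds the kinase domain of EGFR and blocks it, was at 14.0, 13.9 and 12.2 FPKM in the N134 tumours, 12.6, 12.1 and 13.2 FPKM in the N134-RHAMMB tumours and 31.5, 23.7 and 33.4 FPKM in the metastases. The subcutaneous groups overlapped, and each metastasis lay above all 6 subcutaneous tumours. It rose by 1.15 (SE 0.14) against the N134-RHAMMB tumours and by 1.08 (SE 0.14) against the N134 tumours, with limma adjusted p of 3.20e-04 and 4.99e-04, and both calls held under the 19 alternatives run. Hepatocytes express Errfi1, and the hepatocyte sums given above moved with it. Their part in its level was not tested.

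Cblc, a ubiquitin ligase of the CBL family that acts on EGFR, had its highest values in the N134-RHAMMB tumours. It was at 4.34, 4.62 and 5.29 FPKM in the N134 tumours, 10.1, 8.32 and 9.31 FPKM in the N134-RHAMMB tumours and 4.37, 1.06 and 4.15 FPKM in the metastases. It fell by 1.41 in the metastases against the N134-RHAMMB tumours (SE 0.32, limma adjusted p 0.0222). Of 19 alternatives, 6 lost this call, 3 of them by leaving out 1 N134-RHAMMB tumour (limma adjusted p 0.0567 to 0.0922). The difference between the subcutaneous groups was 0.83 (limma adjusted p 0.313). It was called in 3 of 19 alternatives, among them those 2 groups alone in the fit (limma 0.0371) and the fit without metastasis 2 (limma 0.0218). Lrig1, a membrane protein that promotes the breakdown of the receptors, was at 5.79 to 6.21 FPKM in the N134 tumours and 3.20 to 4.62 in the N134-RHAMMB tumours, a difference of -0.56 (limma adjusted p 0.308).

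Of 18 tested targets and feedback genes of the ERK pathway, 0, 1 and 1 were called, each time Dusp4, and 4, 3 and 8 had an unadjusted p below 0.05, beside 12.8%, 16.7% and 21.4% of all genes. The median difference of this list was -0.29, -0.13 and -0.31, beside 0.01, -0.06 and -0.03 over all genes. In the same comparisons the median of the macrophage markers was -0.67, -0.52 and -1.21, and that of the fibroblast markers -1.02, 0.05 and -0.97. The part of these cells in the list was not tested. Dusp4, a phosphatase that inactivates ERK and is induced by it, was at 15.3, 19.1 and 16.5 FPKM in the N134 tumours, 8.08, 6.70 and 9.22 FPKM in the N134-RHAMMB tumours and 3.92, 1.36 and 4.10 FPKM in the metastases. The 3 groups did not overlap. It fell by 2.20 in the metastases against the N134 tumours (SE 0.27, limma adjusted p 3.23e-04), under all 19 alternatives, and by 1.20 against the N134-RHAMMB tumours (limma adjusted p 0.0239). Of the 19 alternatives, 6 lost the latter call of Dusp4, 2 of them by leaving out N134-RHAMMB tumour 1 or 4 (limma adjusted p 0.0873 to 0.0933). Between the subcutaneous groups its difference was -1.0 (limma adjusted p 0.177). That difference passed in 3 of 19 alternatives, among them those 2 groups alone in the fit (limma 0.0305) and the fit without metastasis 2 (limma 0.0179). Egr1, an immediate early transcription factor, differed by -1.0 between the subcutaneous groups (limma adjusted p 0.322), Etv4, an ETS factor of the pathway, by -0.56 between metastases and N134-RHAMMB tumours (limma adjusted p 0.206), and Fos by -1.16 between metastases and N134 tumours (limma adjusted p 0.173).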

How the data were processed

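RNA of 9 tumour libraries, 3 in each of 3 groups, was measured by RNA sequencing. The submitters' processing notes name bcl2fastq 2.19, STAR 2.5.2, Cufflinks 2.1.1 and the GRCm38 build, with no role for each. The sources used here do not give the library kit, strand or read length. The authors deposited FPKM values for 22053 rows of protein-coding genes, per the file headers, and every result starts from them. FPKM is divided by transcript length and library size; a gene can therefore read lower when others fill more of a library.

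Of the rows, 7 with a failed estimate and 102 that repeated a symbol (the locus with the highest mean was kept) were dropped, which left 21944 genes. Values were analysed as log2(FPKM + 1), a scale that understates changes of low genes. Genes at or above 1 FPKM in at least 3 libraries (12854) were tested in limma (version 3.58.1, R 4.3.3) by a linear model over the 9 libraries, 6 residual degrees of freedom, an intensity trend, 2-sided tests and Benjamini-Hochberg adjustment over all genes. The smallest p that an exact permutation test of 3 libraries against 3 allows is 0.1, so none was run. Depth was estimated from the step that 1 fragment makes in low genes of 1 transcript, and the estimated fragments cover counting error only.

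Coordinates are those of the table with 1 added to the start, and 9 of 10 members matched GENCODE M21 exactly. Sequences are from RefSeq (GRCm38.p6), read with Python 3.11.15. The members, gene lists and tests were chosen with earlier results of these data known. Named were all members, and from each pathway list genes called in any comparison or among the 2 with the largest difference in one, of which those with a result given are printed. Other settings tried are in the closing section.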

Additional observations from a re-analysis of the deposited data

How the results depend on the processing

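The number of genes called in N134-RHAMMB against N134 tumours was 25 and depended on the settings. It was 169 with those 2 groups alone, 2629 with library weights, 1 with a replicate block and 0 to 193 when 1 library was left out. Without N134 tumour 1, 2 or 3 it was 0, with 1274, 1091 and 1322 genes at an unadjusted p below 0.05 by limma against 1648 with all libraries. Without N134-RHAMMB tumour 1, 2 or 4 it was 8, 2 and 2, and the 193 came without metastasis 2. For metastases against N134-RHAMMB tumours the count of 843 became 515 with a minimum of 5 FPKM and 1950 with library weights. Without N134-RHAMMB tumours 2 and 4, the pair with muscle markers, the counts were 1 (772 at an unadjusted p below 0.05 by limma) and 504 in these comparisons. N134-RHAMMB tumour 1 was then the only library of its group and was assumed to vary like the other groups, so these counts say nothing about stability. With quantile normalization 630 of 944 calls were higher, against 648 of 843. For metastases against N134 tumours the count of 1276 became 776 with a minimum of 5 FPKM. The cause was not tested, apart from fewer genes or libraries where these were removed.

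For the tested members, 276 repeats of 15 differences were made: 259 kept their direction and side of the threshold, 6 passed it and 11 changed sign. Tgfa between the subcutaneous groups was -0.0033 with median-of-ratios scaling, and -0.20 to 0.12 with 1 library left out (below 0 without N134 tumour 2 or N134-RHAMMB tumour 1). Hbegf in metastases against N134 tumours was 0.0067 with library weights and -0.36 to 0.037 with 1 library left out (above 0 without metastasis 2). Egf in metastases against N134-RHAMMB tumours was -0.020 with the replicate block and -0.17 to 0.42 with 1 left out (below 0 without metastasis 3). With 1 library left out, Egfr in metastases against N134-RHAMMB tumours was -0.42 to 0.028 (above 0 without metastasis 2), Hbegf there -0.12 to 0.28 (below 0 without metastasis 1), Egf in metastases against N134 tumours -0.44 to 0.15 (above 0 without N134 tumour 3 or metastasis 2), and Nrg1 there -0.46 to 0.77 (below 0 without metastasis 1). Of 451 repeats of 24 named pathway differences, 405 kept direction and call, 25 lost the call, 20 gained it and 1 changed sign.

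Deviations from the group means correlated at -0.0027 to 0.10 between same-numbered libraries, within the range of differently numbered ones (-0.19 to 0.15). Keratinocyte markers, however, summed highest in number 2 of each group. These sums were 13.4 FPKM in N134 tumour 2, 18.4 in N134-RHAMMB tumour 2 and 9.18 in metastasis 2, and 4.49 to 6.50 in the other libraries. Whether same-numbered libraries shared any handling was not tested. With the replicate block 1, 646 and 1097 genes were called in the 3 comparisons. Of 17 repeats each of the fit with no filter on low values, 12 lost the call of Ereg against the N134-RHAMMB tumours, 12 that of Ereg against the N134 tumours and 13 that of Btc against the N134 tumours, and these repeats were chosen after the data were seen. The 5 members below 1 FPKM rest on few fragments.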
